A study of Mus musculus with 3 samples.

Results

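Serpins are a family of protease inhibitors, and 59 serpin genes with 75 probes were read on 3 two-colour arrays that compared day 10 embryoid bodies of a Dido mutant with wild type. A gene was taken as a member when its name on the array was Serpin with a clade letter from a to i and a number. All 75 probes carry such a name in the files, and 73 of them have an accession in a RefSeq table that gives the same symbol. They belong to 30175 named genes with 39429 probes on the array design. The mutant group is labelled Dido3deltaCT+HADidoNT, mouse embryoid bodies whose Dido3 lacks its C-terminal end and which also carry an HA-tagged Dido N-terminal construct. The control group is labelled wild type. Both were cultured for 10 days in suspension on low attachment plates without LIF, a cytokine that keeps such stem cells from differentiating. There were 3 biological replicates of each genotype and 3 arrays, and every array paired a mutant RNA with a wild-type RNA of the same number. Cy3 marked the mutant RNA of arrays 1 and 3, and Cy5 that of array 2. A construct and a truncation come together in every mutant sample, so their parts in a difference cannot be told apart. Whether the mutant cells are 1 clone is not given in the sources used here.

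A serpin offers a protease an exposed reactive centre loop as bait. Once the loop is cut, the serpin folds around the protease and traps it in a stable complex, so each molecule works only once. Mammalian serpins are sorted into clades. Clade A holds secreted plasma proteins such as alpha-1-antitrypsin and several hormone carriers, clade B holds inhibitors that stay mostly inside the cell, and clades C to I hold regulators of clotting, fibrinolysis, complement and the extracellular matrix. In the early mouse embryo, the visceral endoderm, like the later liver, secretes many plasma proteins. In mice the alpha-1-antitrypsin, alpha-1-antichymotrypsin and Serpinb9 genes have been duplicated into clusters of close copies.

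The probes behind the values of 4 genes below are shown as they stand on the array, since each reading is the binding of labelled RNA to these 60 bases. Each was read 5′ to 3′ on the gene's strand, in mm9 coordinates from the files. The Serping1 and Serpine2 probes span an intron. The Serping1 probe covers chr2:84605968-84607474 on the minus strand, the Serpine2 probe chr1:79793476-79796093 on the minus strand, the second Serpina10 probe chr12:104864964-104865023 on the minus strand, and the second Serpinb9e probe chr13:33351856-33351915 on the plus strand.
Serping1: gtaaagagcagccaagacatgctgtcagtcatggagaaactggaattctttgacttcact
Serpine2: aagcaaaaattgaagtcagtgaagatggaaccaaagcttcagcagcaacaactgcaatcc
Serpina10: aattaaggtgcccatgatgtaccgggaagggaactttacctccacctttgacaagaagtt
Serpinb9e: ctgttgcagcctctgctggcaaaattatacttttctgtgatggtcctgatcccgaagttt

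Values are log2 ratios with the mutant on top, so that a positive one means more signal in the mutant, given as mean ± SD over n = 3 arrays, and normalized signals of each RNA in linear intensity units. A gene was tested when a probe of it exceeded background clearly on each of the 3 arrays for the mutant, for wild type or for both, and its brightest such probe stood for it. Tests used limma against 0 over 19686 genes with Benjamini-Hochberg adjustment. The signal was well above background for 64.5% to 73.6% of probes in the mutant channels and 63.4% to 74.8% in the wild-type channels, and no spot was saturated. Dido1, the targeted gene, was read by 4 probes that moved in different directions, with mean log2 ratios of -3.60, -0.54, 2.35 and 3.03. The probe at -3.60 had signals of 176, 152 and 105 in the mutant, against 2422, 1813 and 1149 in wild type. The Y-linked genes Eif2s3y and Ddx3y stayed at background in all mutant RNAs, at least 92.8-fold and 23.7-fold lower than in wild type, so genotype cannot be told apart from the presence of Y-linked transcripts. Over all tested genes the ratios of arrays 1 and 3 correlated with r = 0.794, those of arrays 1 and 2 with r = 0.377, and those of arrays 2 and 3 with r = 0.194. Only array 2 had the opposite dyes, so an effect of the dye cannot be told apart from one of replicate 2. In pieces of tissue such as embryoid bodies, fewer cells of a type and less RNA per cell cannot be told apart.

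Of the 59 serpin genes, 36 could be tested, and 1 changed. Serping1, which encodes C1 inhibitor, was lower in the mutant. Over all tested genes 1.66% were called, 1.27% higher and 0.391% lower. At an unadjusted p under 0.05, 6 serpin genes were higher and 3 lower, 25.0% of the 36, against 12.1% higher and 7.77% lower, 19.9% together, of all tested genes. The ratios of 12 serpin genes had one sign on all 3 arrays (8 higher, 4 lower), 33.3% of the 36, against 41.6% of all tested genes (22.5% higher, 19.1% lower). The signals of the mutant RNAs were all above those of the wild-type RNAs for 6 serpin genes and all below them for 2, where the shares over all tested genes were 13% and 8.58%. Serpina3f, Serpina3i and Serpind1 were counted as higher at the unadjusted p, on all arrays and by their signals. They entered the test only through their detection in the mutant, as did Serpina3n, counted as higher on all arrays. Serpina1d and Serpina3j entered the same way, though neither was counted as higher or lower in these ways. Set against the shares over all genes, these counts are no result about serpins in particular. The median serpin ratio was 0.13, with array medians of 0.08, 0.12 and 0.14, against -0.01 over all tested genes. With the filter on both genotypes the median serpin ratio was -0.03, and with no filter it was -0.0038, so its sign turned; the filter used here admits genes detected in 1 genotype only. The serpin ratios ran from -2.10 for Serping1 to 1.94 for Serpina10, and 18 of the 36 lay within 0.5 of 0. The median SD across arrays was 0.43 for serpin genes and 0.40 for all tested genes. Across the 36 genes r was 0.468 for arrays 1 and 2, 0.427 for arrays 1 and 3, and 0.307 for arrays 2 and 3. This is a description over genes that share the same 3 RNA pairs.

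**Figure D1:**
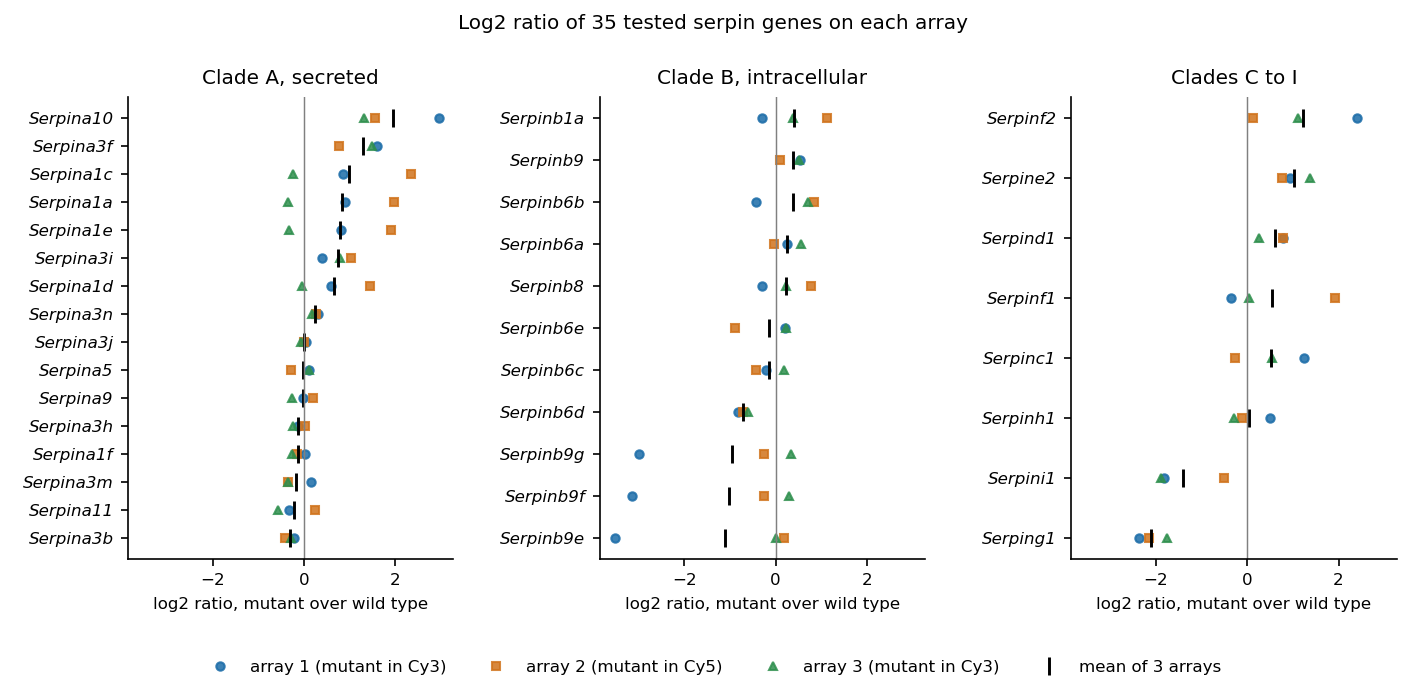
Log2 ratio of mutant over wild type (x axis) for 35 of the 36 tested serpin genes (rows, sorted by mean within 3 panels for clade A, clade B and clades C to I), with 1 point per array and a bar at the mean. Serping1 lies left of 0 on all 3 arrays, Serpinb9e, Serpinb9f and Serpinb9g lie far left on array 1 alone, and the Serpina1 copies lie furthest right on array 2.

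C1 inhibitor blocks the first proteases of the complement cascade, C1r and C1s, and the contact proteases kallikrein and factor XIIa. Its gene Serping1 had signals of 405, 933 and 595 in the mutant, against 2102, 4152 and 2015 in wild type. Every mutant RNA lay below every wild-type RNA, and on each array the mutant was lower by a similar amount. The log2 ratios were -2.38, -2.15 and -1.76, a mean of -2.10 ± 0.31 (SD, n = 3), 4.28-fold lower, with an adjusted p of 0.041 by limma. The 95% interval of the mean ratio ran from -2.65 to -1.54. A second Serping1 probe, at chr2:84605663-84605722, gave log2 ratios of -2.32, -2.47 and -1.95. The sign held in all 18 alternative settings and the call in 13. It was lost with normexp without a limit on the local background (adjusted p = 0.167), with the authors' deposited log ratios (0.0596), with no filter on dim probes (0.0563), without replicate 1 (0.233) and without replicate 3 (0.130).

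The complement proteases that C1 inhibitor acts on did not pass the test. C1s had log2 ratios of 0.08, 0.57 and 0.60, with a mean of 0.41 ± 0.29 (SD, n = 3). C1ra had 0.44, 0.27 and 0.14, with a mean of 0.28 ± 0.15 (SD, n = 3). Signals of C1s were 303, 358 and 309 in the mutant, against 287, 241 and 205 in wild type, so the groups did not overlap but lay close. These 2 genes were singled out after their values were seen, because they encode proteases that C1 inhibitor blocks.

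**Figure D2:**
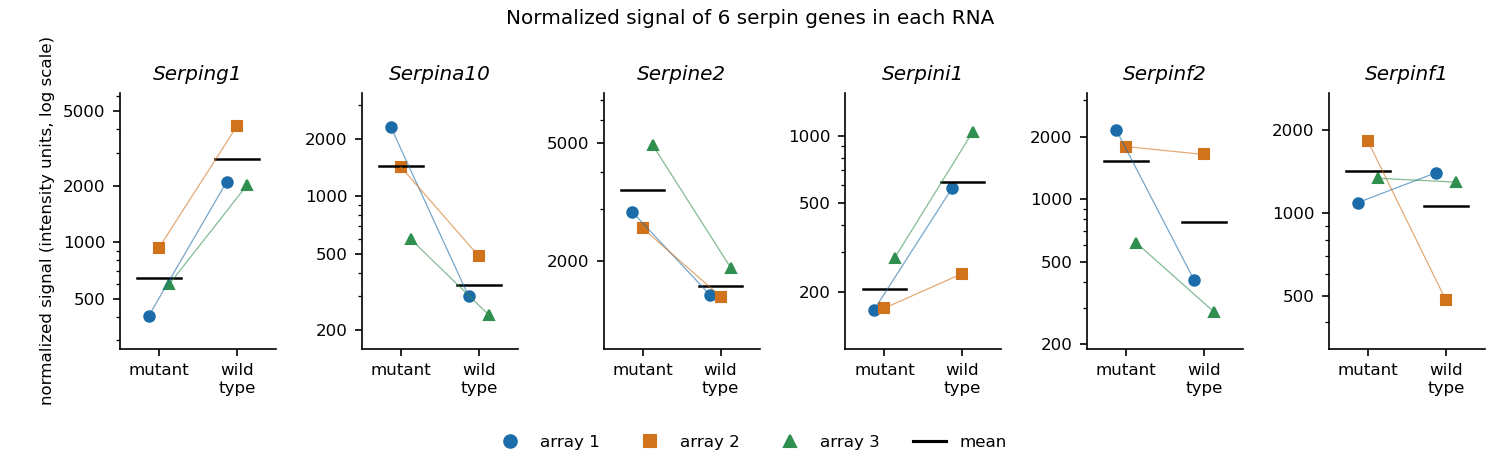
Normalized signal (y axis, log scale, intensity units) of 6 serpin genes in the 3 mutant and the 3 wild-type RNAs; symbols mark the array, thin lines join the 2 RNAs of an array, and black bars are means. The mutant and wild-type points do not overlap for Serping1, Serpina10 and Serpine2, while those of Serpini1, Serpinf2 and Serpinf1 do. For Serpinf1 wild-type replicate 2 is lowest.

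Among the secreted serpins of clade A, 16 of 23 genes could be tested and none passed the adjusted threshold, 3 being higher at an unadjusted p under 0.05 and none lower, where 12.1% and 7.77% of all tested genes were. Of these 3, Serpina3f and Serpina3i entered the test only through their detection in the mutant. Serpina10 encodes the protein Z-dependent protease inhibitor, which blocks the clotting protease factor Xa. It had signals of 2315, 1429 and 596 in the mutant, against 301, 487 and 240 in wild type. The mutant was higher on every array and the groups did not overlap, although mutant replicate 3 lay only a little above wild-type replicate 2. Ratios on the log2 scale were 2.95, 1.55 and 1.31, a mean of 1.94 ± 0.88 (SD, n = 3), with an adjusted p of 0.080 by limma. This was the only serpin gene at least 2-fold higher on every array, as 3.11% of all tested genes were; Serping1 was the only one at least 2-fold lower, as 1.08% were. The second Serpina10 probe, printed above, gave 1.76, 1.69 and 0.56. The adjusted p of Serpina10 was 0.0387 without replicate 2 and 0.0418 in a separate-channel fit. It was 0.315 without replicate 1 and 0.175 without replicate 3. Of all 19686 tested genes, 5077 passed without replicate 2 and 1323 in the separate-channel fit.

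The alpha-1-antitrypsin gene of other mammals, whose product blocks neutrophil elastase, stands as the copies Serpina1a, Serpina1c, Serpina1d and Serpina1e on mouse chromosome 12. All 4 showed the same order of arrays. Serpina1a had signals of 298, 505 and 176 in the mutant, against 160, 128 and 225 in wild type. Mutant replicate 2 was the highest RNA, wild-type replicate 2 the lowest, and in replicate 3 wild type was the higher one, so the groups overlapped. Its log2 ratios were 0.89, 1.98 and -0.35, with a mean of 0.84 ± 1.16 (SD, n = 3). Serpina1c had 0.85, 2.35 and -0.23. Serpina1d had 0.58, 1.45 and -0.05, and it entered the test only through its detection in the mutant. Serpina1e had 0.82, 1.89 and -0.33. Adjusted p-values by limma ran from 0.365 for Serpina1d to 0.413 for Serpina1e. These are not 4 independent readings. The Serpina1a and Serpina1c probes share 50 of 51 overlapping bases, and those of Serpina1c and Serpina1e share 49 of 59, so RNA of 1 copy could bind the probes of others. Serpina1f, a more distant relative, had ratios between -0.27 and 0.01.

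The Serpina1 copies also have nearly the same promoter. The 250 bases before the start of Serpina1a and Serpina1c align over 243 bases, 95.9% of them identical, while those of Serpina1a and Serpina1e align over 192 bases with 95.8% identity. Both the Serpina1a and the Serpina1e promoter are shown from RefSeq on GRCm38.p6, because the copies moved together. Capitals mark GTTAAT, 1 arm of the palindrome bound by HNF1, a transcription factor of liver and visceral endoderm. Serpina1a lies at chr12:103863620-103863869 and Serpina1e at chr12:103956898-103957147, both on the minus strand.
Serpina1a promoter: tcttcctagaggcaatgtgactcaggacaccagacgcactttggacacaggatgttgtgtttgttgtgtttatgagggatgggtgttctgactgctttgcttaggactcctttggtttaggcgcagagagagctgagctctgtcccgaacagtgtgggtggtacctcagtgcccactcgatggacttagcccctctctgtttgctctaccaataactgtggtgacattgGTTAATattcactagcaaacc
Serpina1e promoter: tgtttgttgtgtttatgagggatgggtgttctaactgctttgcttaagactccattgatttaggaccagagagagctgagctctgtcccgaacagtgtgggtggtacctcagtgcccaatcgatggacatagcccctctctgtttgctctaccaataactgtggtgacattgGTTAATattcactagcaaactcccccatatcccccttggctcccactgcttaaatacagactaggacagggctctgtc
The letters were chosen after these promoters had been read, and were searched on both strands of 32851 promoters of the same length. They occur in 6.4% of all promoters and in 11 of 58 promoters of 49 serpin genes, including Serpina1a, Serpina1c, Serpina1d and Serpina1e. As the copies share descent, their matches are not independent. The other letters searched were TGACGT, and no printed promoter holds both.

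The alpha-1-antichymotrypsin copies of the Serpina3 group, whose products include inhibitors of chymotrypsin-like proteases, were mostly dim. The probe named Serpina3f had signals of 233, 144 and 181 in the mutant, against 77.2, 84.0 and 64.7 in wild type. It was never well above background in wild type, and every mutant RNA was above every wild-type RNA. The difference was at least 2.37-fold, a bound for the mean of the arrays in which each wild-type reading counts as no lower than the dimmest detected signal, and the adjusted p was 0.0777 by limma. That bound was computed from channel signals, which stay open to dye bias. The probe lies 764 bases from that of Serpina3h and 33508 bases from the other Serpina3f probe, further than the 6586 bases RefSeq gives for the gene, so which copy it reads is uncertain. The other Serpina3f probe gave 0.06, 0.60 and 0.07. Serpina3i had signals of 124, 203 and 166 in the mutant, against 94.8, 99.4 and 95.7 in wild type, with log2 ratios of 0.39, 1.03 and 0.79 and an adjusted p of 0.163. The mutant was higher in all 3 replicates. The probes of Serpina3f and Serpina3i were singled out after their values were seen.

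The rest of clade A stayed near 0. Serpina3b, Serpina3h, Serpina3j, Serpina3m and Serpina3n had mean log2 ratios from -0.31 to 0.25. Serpina3n, the one at 0.25 ± 0.06 (SD, n = 3), was well above background in all mutant RNAs and in no wild-type RNA. Serpina5, the protein C inhibitor, averaged -0.03 ± 0.23 (SD, n = 3). Serpina9 averaged -0.03 ± 0.23 (SD, n = 3) and Serpina11 -0.22 ± 0.41 (SD, n = 3). Signals of Serpina5, Serpina9 and Serpina3j lay between 84.5 and 120 units in every RNA, near the dimmest detected signals, so a fall in the mutant was not detectable there.

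In clade B, 11 of 26 genes could be tested and none passed the adjusted threshold. At an unadjusted p under 0.05, 1 was lower and none higher, where 7.77% and 12.1% of all tested genes were. Serpinb6a, which blocks cathepsin G and other proteases that leak into the cytosol, had signals of 15377, 13689 and 21632 in the mutant, against 12988, 13997 and 14661 in wild type. The groups overlapped. On the log2 scale the ratios were 0.24, -0.03 and 0.56, a mean of 0.26 ± 0.30 (SD, n = 3), with a 95% interval from -0.29 to 0.81. The neighbouring copies on chromosome 13 were Serpinb6b at 0.37 ± 0.70, Serpinb6c at -0.15 ± 0.31 and Serpinb6e at -0.15 ± 0.63 (SD, n = 3 each). The Serpinb6a and Serpinb6c probes share 55 of 59 bases, so their readings can mix. Serpinb6d, singled out after its values were seen, had signals of 434, 478 and 392 in the mutant, against 765, 788 and 592 in wild type. The mutant was lower in every replicate with no overlap, at log2 ratios of -0.82, -0.72 and -0.60 and an adjusted p of 0.133 by limma. Without replicate 2 Serpinb6d passed the threshold, as did 5077 of all 19686 tested genes.

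The Serpinb9 copies, close relatives of the granzyme B inhibitor Serpinb9, differed on array 1 alone. Serpinb9e had signals of 399, 219 and 585 in the mutant, against 4598, 194 and 586 in wild type. Serpinb9f had 542, 284 and 771 in the mutant, against 4772, 337 and 625 in wild type. Serpinb9g had 303, 218 and 596 in the mutant, against 2394, 261 and 471 in wild type. For all 3 genes wild-type replicate 1 was the single high RNA, and the other RNAs of both genotypes overlapped. The Serpinb9f and Serpinb9g probes share 52 of 59 bases, so these are not 3 independent readings. The log2 ratios of Serpinb9e were -3.53, 0.18 and 0.00, of Serpinb9f -3.14, -0.25 and 0.30, and of Serpinb9g -2.98, -0.26 and 0.34. The mean ratios, -1.12, -1.03 and -0.97, came from 1 array, and the adjusted p-values were 0.510, 0.497 and 0.506 by limma. The second Serpinb9e probe, printed above, gave -2.95, 0.01 and 0.16. Serpinb9c and Serpinb9d, too dim to be tested, had array 1 log2 ratios of -1.27 and -1.62, and a second Serpinb9c probe had -0.40. Serpinb9 itself averaged 0.38 ± 0.24 (SD, n = 3), and its array 1 log2 ratio was 0.54.

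**Figure D3:**
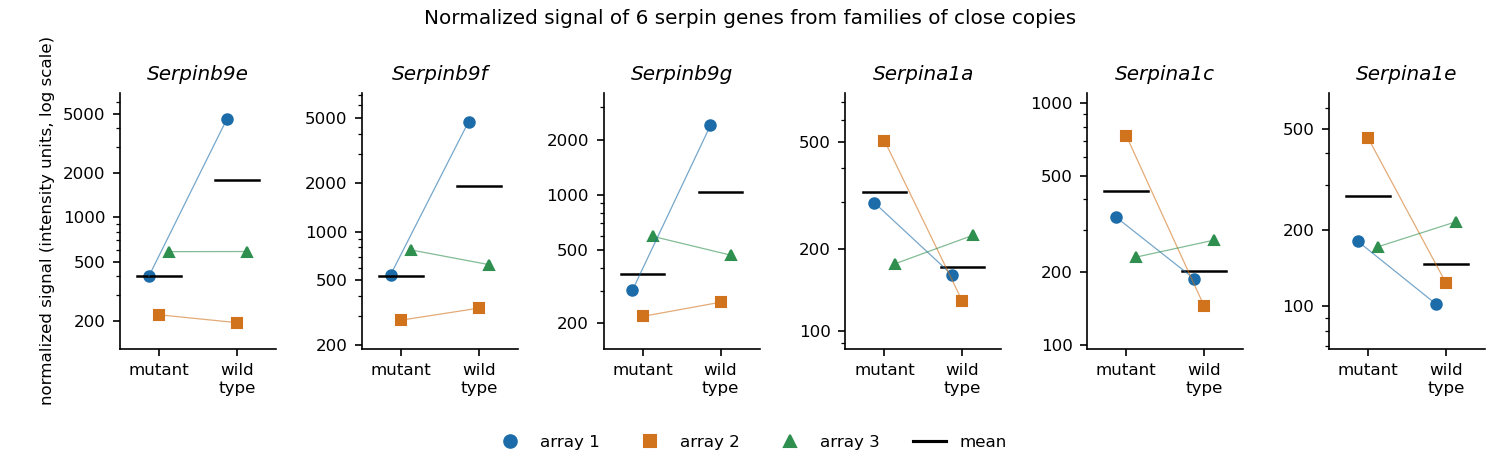
Normalized signal (y axis, log scale, intensity units) of 3 Serpinb9 copies and 3 Serpina1 copies in the 3 mutant and the 3 wild-type RNAs; symbols mark the array, thin lines join the 2 RNAs of an array, and black bars are means. The wild-type RNA of array 1 alone is high for the Serpinb9 copies (4598 for Serpinb9e), and the mutant RNA of array 2 is highest for the Serpina1 copies (505 for Serpina1a).

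Some markers of trophoblast giant cells, the placental cells that line the implantation site, were also high in wild-type replicate 1. Prl3d1, a placental lactogen, had signals of 279, 131 and 391 in the mutant, against 1004, 101 and 136 in wild type. Prl3b1 had 289, 235 and 534 in the mutant, against 1004, 161 and 362 in wild type. Ctsj, a placental cathepsin, had 681, 164 and 2185 in the mutant, against 1828, 210 and 348 in wild type. On array 3 all 3 were higher in the mutant, with log2 ratios of 1.53 for Prl3d1, 0.56 for Prl3b1 and 2.65 for Ctsj. The Serpinb9 copies lay close to their wild-type partner there. These 3 markers were singled out after their values were seen, and others of the list went the other way on array 1, with log2 ratios there of 2.05 for Hand1, 2.78 for Cdx2 and 1.63 for Gata3. Of 15 trophoblast and placenta markers on the array, 12 could be tested. Where 1.27% of all tested genes rose and 0.391% fell, 2 of the 12 rose in the mutant (Hand1 and Cdx2) and none fell. Their summed signal was 18720 to 26223 in the mutant, against 11020 to 16326 in wild type, and Tpbpa, a marker of spongiotrophoblast, was at background in every RNA. Their part in the Serpinb9 result was not tested.

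The promoters of Serpinb9e, Serpinb9f and Serpinb9g are close to identical, with 99.1% of 235 aligned bases between Serpinb9e and Serpinb9f and 95.9% of 246 between Serpinb9e and Serpinb9g. Serpinb9e and Serpinb9g are printed from RefSeq on GRCm38.p6, at chr13:33249358-33249607 and chr13:33484540-33484789 on the plus strand. Capitals mark TGACGT, the core of the cyclic AMP response element.
Serpinb9e promoter: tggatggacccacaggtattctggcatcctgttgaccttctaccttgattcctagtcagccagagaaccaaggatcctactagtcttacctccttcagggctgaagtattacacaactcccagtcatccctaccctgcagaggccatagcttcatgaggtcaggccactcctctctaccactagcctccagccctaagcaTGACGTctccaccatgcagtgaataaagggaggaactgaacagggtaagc
Serpinb9g promoter: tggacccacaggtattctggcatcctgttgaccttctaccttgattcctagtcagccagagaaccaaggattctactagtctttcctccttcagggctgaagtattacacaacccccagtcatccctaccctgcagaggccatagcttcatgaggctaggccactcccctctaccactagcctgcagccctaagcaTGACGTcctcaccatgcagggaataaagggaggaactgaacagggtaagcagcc
These letters, also chosen after the promoters had been read and searched on both strands, occur in 6.5% of the 32851 promoters and in 6 of 58 serpin promoters. Serpinb9c, Serpinb9d, Serpinb9e, Serpinb9f and Serpinb9g hold 5 of these 6, and Serpina3b the other. The Serpinb9 promoter does not hold them and its best local alignment with that of Serpinb9e covered 16 bases. A match is a run of letters, not a site shown to be bound.

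Of the other tested genes of clade B, Serpinb1a, an inhibitor of neutrophil elastase, averaged 0.40 ± 0.70 (SD, n = 3) and Serpinb8, an inhibitor of the convertase furin in humans, averaged 0.24 ± 0.53 (SD, n = 3). Both were lower in the mutant on array 1 and higher on arrays 2 and 3.

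Clades C to I hold 10 genes, of which 9 could be tested. The plasminogen system is controlled by several of them. Serpine2, protease nexin-1, blocks thrombin, urokinase and plasmin at the cell surface. It had signals of 2931, 2587 and 4926 in the mutant, against 1535, 1522 and 1902 in wild type. The mutant was higher in every replicate and the groups did not overlap. Its log2 ratios were 0.93, 0.77 and 1.37, a mean of 1.02 ± 0.31 (SD, n = 3), 2.03-fold higher, with an adjusted p of 0.0908 by limma. It passed the threshold with a dye term (0.0398) and without replicate 2 (0.0257), and missed it without replicate 1 (0.532) or replicate 3 (0.410). Of all 19686 tested genes, 2502 passed with a dye term and 5077 without replicate 2.

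Serpinf2, alpha-2-antiplasmin, had signals of 2163, 1790 and 615 in the mutant, against 407, 1640 and 285 in wild type. Its log2 ratios were 2.41, 0.13 and 1.11, and the groups overlapped, with wild-type replicate 2 close to its mutant partner. The adjusted p was 0.251 by limma. Serpinf2 was singled out after its values were seen.

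Serpini1, neuroserpin, blocks tissue plasminogen activator and is known from neurons. Its signals were 166, 169 and 283 in the mutant, against 585, 241 and 1040 in wild type. The mutant was lower in every replicate, and wild-type replicate 2 lay below mutant replicate 3. The log2 ratios were -1.82, -0.52 and -1.88, a mean of -1.40 ± 0.77 (SD, n = 3), with an adjusted p of 0.119 by limma. It passed the threshold with a dye term (0.0207) and without replicate 2 (0.0115), and missed it without replicate 1 (0.573) or replicate 3 (0.407). Of all 19686 tested genes, 2502 passed with a dye term and 5077 without replicate 2. A second Serpini1 probe gave -0.70, -0.07 and -0.71. Of 9 neuron markers measured, none passed the threshold in limma, 6 were lower at an unadjusted p under 0.05, and 7 were lower in the mutant on all arrays, with a median log2 ratio of -1.76; of all tested genes, 7.77% and 19.1% were lower in these ways. Their summed signal was 6134 to 8023 in the mutant, against 7342 to 21362 in wild type, and none was at background in every RNA. Most of that sum in each mutant RNA was Snap25, whose log2 ratio averaged 0.45. Their part in the Serpini1 values was not tested.

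Serpinc1 and Serpind1, which block thrombin in plasma, were dim. Serpinc1, antithrombin, had signals of 241, 104 and 131 in the mutant, against 101, 125 and 89.8 in wild type. The groups overlapped, and the log2 ratios were 1.25, -0.26 and 0.54, a mean of 0.51 ± 0.75 (SD, n = 3). Serpind1, heparin cofactor II, had signals of 130, 174 and 128 in the mutant, against 76.1, 102 and 107 in wild type. The mutant RNAs were all above the wild-type RNAs, of which 1 was well above background, so Serpind1 entered the test only through its detection in the mutant. Ratios on the log2 scale were 0.77, 0.78 and 0.27, a mean of 0.61 ± 0.29 (SD, n = 3) with an adjusted p of 0.214 by limma. The scanner software's log ratio gave a mean of 2.49 for Serpind1.

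Serpinf1 and Serpinh1 are not inhibitors of proteases. Serpinf1, pigment epithelium-derived factor, restrains blood vessel growth. It had signals of 1091, 1823 and 1338 in the mutant, against 1401, 481 and 1296 in wild type. Wild-type replicate 2 was the single low RNA, and the groups overlapped. On the log2 scale the ratios were -0.36, 1.92 and 0.05, a mean of 0.54 ± 1.22 (SD, n = 3), and without replicate 2 the mean was -0.16. Serpinh1, a chaperone of collagen in the endoplasmic reticulum, had signals of 78463, 62850 and 43103 in the mutant, against 55311, 67933 and 52831 in wild type. The groups overlapped. Its log2 ratios were 0.50, -0.11 and -0.29, a mean of 0.03 ± 0.42 (SD, n = 3). The 95% interval, not adjusted for the number of genes, ran from -0.59 to 0.65, so these 3 arrays leave room for changes within that range.

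The other 23 serpin genes could not be tested, 7 in clade A, 15 in clade B and Serpini2. Of these, 9 were well above background in no RNA, among them Serpinb2, Serpinb7 and Serpinb9b. The remaining 14 were above background in some RNAs, among them the hormone carriers Serpina6 and Serpina7 and the epithelial serpin Serpinb5. All probes of the 23 genes had signals of 59.5 to 266 units. The highest was Serpinb9d in wild-type replicate 1.

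Where a gene had 2 testable probes, their mean log2 ratios had the same sign, though for some genes the arrays were mixed in sign. This held for all 9 such genes, and their mean log2 ratios differed by 0.15 for Serping1 to 1.04 for Serpina3f. The share over all genes with 2 such probes was not computed. The 2 Serpina11 probes share 53 of 57 overlapping bases, so they are not independent readings. Of 2775 pairs among the 75 probes, 14 shared at least 75% of bases over an overlap of at least 40, and 12 of these joined different genes.

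The proteases, cofactors and partners of serpins were read beside them, in 7 lists. Of 145 listed genes on the array 112 could be tested, and of these 3 rose and 1 fell. On all arrays 47 of the 112 were higher, a larger share than the 22.5% of all tested genes. The lists were chosen with earlier results known and share genes with the marker lists below, among them Ttr, Rbp4, Thbd and Col4a1. The filter also admits genes detected in 1 genotype only, so this share is no result about serpin partners in particular. Lower on all arrays were 21 of the 112, close to the 19.1% of all tested genes. The median log2 ratio of the 112 was 0.24, against 0.13 for serpin genes and -0.01 for all tested genes, of which 1.66% were called.

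The lists of proteases held 2 of these genes. Of 21 coagulation and contact genes, Thbd fell. Thrombomodulin, its product, turns thrombin from clotting to activating protein C. It had signals of 303, 520 and 350 in the mutant, against 2681, 5494 and 2111 in wild type. All mutant RNAs were lower, with a mean log2 ratio of -3.05 ± 0.41 (SD, n = 3) and an adjusted p of 0.035 by limma. F3, tissue factor, averaged -1.71 ± 0.59 (SD, n = 3, adjusted p = 0.0633 by limma) and Proc, protein C, 1.94 ± 1.00 (SD, n = 3, adjusted p = 0.0955 by limma). Of 14 leukocyte, lysosomal and intracellular proteases, Ctsh, cathepsin H, rose. It had signals of 211840, 89541 and 124820 in the mutant, against 50274, 24636 and 38061 in wild type. Its mean ratio was 1.88 ± 0.18 (SD, n = 3), with an adjusted p of 0.041 by limma, and the groups did not overlap. Ctsl averaged 0.98 ± 0.24 and Tmprss2 1.85 ± 1.02 (SD, n = 3 each), both short of the threshold.

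None of 14 plasminogen activation genes passed in limma, with a median log2 ratio of 0.25. At an unadjusted p under 0.05, 3 were higher and 1 lower, against 12.1% and 7.77% of all tested genes. Vldlr, a receptor that clears serpin complexes with proteases, averaged 1.47 ± 0.91, Anxa2, a plasminogen receptor, 0.57 ± 0.09, and Lrp2, a clearance receptor, -0.62 ± 0.27 (SD, n = 3 each). Plau, the urokinase gene, was at background in every RNA. None of 11 complement genes passed, with a median of 0.41. At an unadjusted p under 0.05, 3 were higher and none lower, against 12.1% and 7.77% of all tested genes. Cfb averaged 1.98 ± 1.16, Masp1 0.82 ± 0.27 and Cfi 1.90 ± 1.48 (SD, n = 3 each).

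None of 19 collagen partners of Serpinh1 passed in limma, with a median of -0.02. At an unadjusted p under 0.05, 5 were higher and 3 lower, where 12.1% and 7.77% of all tested genes were. These partners differed among themselves. Col1a2 had signals of 34481, 23869 and 13046 in the mutant, against 3039, 2470 and 3863 in wild type, with no overlap and a mean ratio of 2.84 ± 0.95 (SD, n = 3, adjusted p = 0.0527 by limma). Col5a1 averaged 1.84 ± 0.62 and Pcolce 1.36 ± 0.39 (SD, n = 3 each). Among the partners lower on every array were Col4a1 at -1.87 ± 0.76 and Col4a2 at -1.57 ± 0.58 (SD, n = 3 each). These 2 were singled out after their values were seen. In all, 8 of the 19 partners were higher and 6 lower in the mutant on every array, against 22.5% and 19.1% of all tested genes.

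Of 24 protease inhibitors of other families, Spink3 rose. It encodes a trypsin inhibitor. It had signals of 232810, 86755 and 269350 in the mutant, against 39542, 18489 and 35722 in wild type. The groups did not overlap, with a mean ratio of 2.57 ± 0.34 (SD, n = 3) and an adjusted p of 0.035 by limma. Ambp averaged 1.97 ± 0.75 and Tfpi2 1.61 ± 0.55 (SD, n = 3 each), short of the threshold. Of 9 hormone binding and transport partners, Ttr rose. Transthyretin, its product, carries thyroid hormone beside the serpin Serpina7. It had signals of 65867, 58361 and 85231 in the mutant, against 6565, 15117 and 15001 in wild type. All mutant RNAs were higher, at a mean ratio of 2.59 ± 0.69 (SD, n = 3) and an adjusted p of 0.0457 by limma. Agtr1a averaged -1.82 ± 0.49 and Rbp4 2.87 ± 1.45 (SD, n = 3 each). The serpin Agt, named outside the Serpin scheme, was too dim to be tested. Each of these 4 calls was lost without replicate 1 and without replicate 3, when no list gene passed, while 41 passed without replicate 2. Of all 19686 tested genes, 5077 passed without replicate 2.

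**Figure D4:**
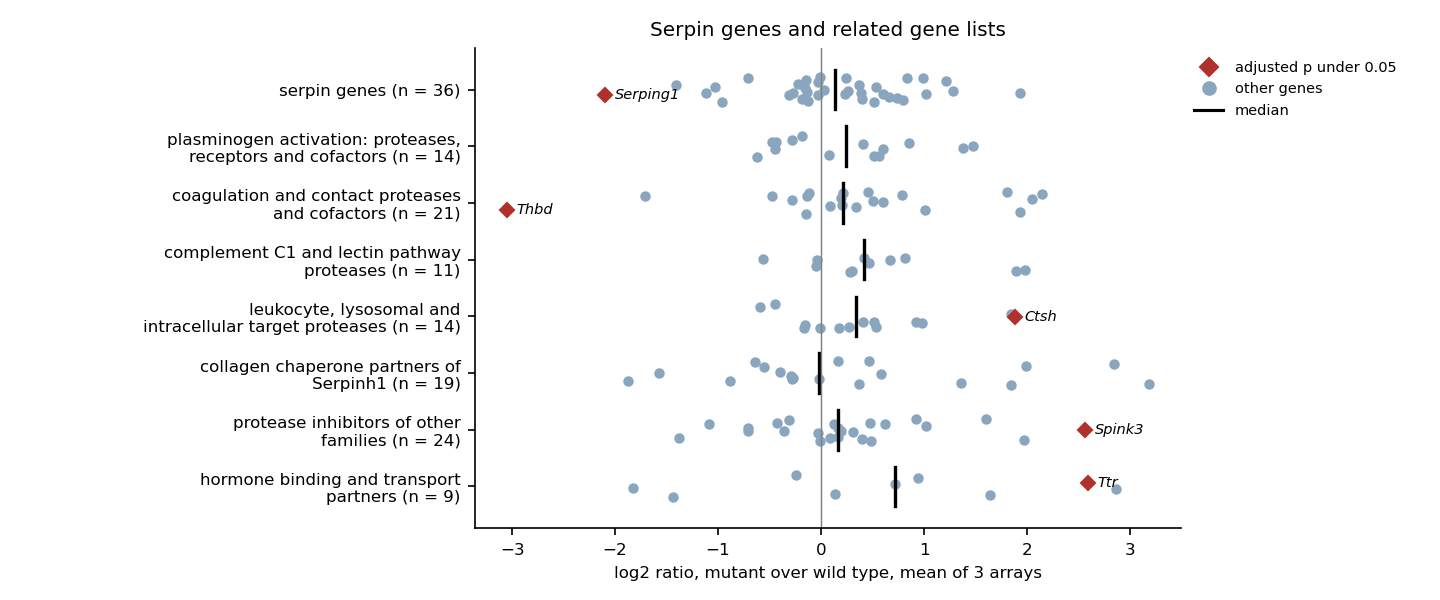
Mean log2 ratio of mutant over wild type over 3 arrays (x axis) for the 36 tested serpin genes and for the tested genes of 7 related lists (rows, 1 point per gene, shifted up or down at random so that points stay visible; n is the number of genes). Red diamonds passed the adjusted threshold of 0.05, which 1 serpin gene and 4 list genes did, and black bars are medians.

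Markers of the cell types that embryoid bodies can hold were read beside these genes. Of all tested genes, 1.27% were called higher and 0.391% lower, and 22.5% were higher and 19.1% lower on every array. At an unadjusted p under 0.05 by limma, 12.1% were higher and 7.77% lower. Of 15 visceral endoderm markers, all measured, 2 rose (Ttr and Apoa4) and none fell. On every array 12 of the 15 were higher in the mutant and 1 was lower (Lrp2, at -0.62 on average). The median log2 ratio of the 15 was 2.08. Their summed signal was 533420 to 923440 in the mutant, against 161180 to 298130 in wild type, and none was at background in every RNA. Of 13 parietal endoderm markers, 1 fell (Thbd) and none rose. On every array 10 of the 13 were lower in the mutant and 2 were higher, with a median of -1.18. Their summed signal was 237750 to 361280 in the mutant, against 428670 to 688620 in wild type, and none was at background in every RNA. Of 11 fibroblast and mesenchyme markers 2 rose, Fn1 at 1.79 among them. On every array 8 of the 11 were higher in the mutant and none was lower, with a median of 1.79. Of 10 endothelium markers 2 rose, Flt1 at 3.06 and Kdr at 2.27. On every array 7 of the 10 were higher and 1 was lower, with a median of 0.76. Of 11 epithelium markers 1 rose, while none of 10 macrophage and 9 pluripotent cell markers passed in limma (at an unadjusted p under 0.05, 2 macrophage markers were higher and 1 lower, and 1 pluripotent cell marker was lower). The brightest markers not yet named were Rhox5 (0.57 on average on the log2 scale) for visceral endoderm, Sparc (1.24) and Lamb1 (-0.80) for parietal endoderm, Hand1 (1.82) and Plac1 (1.23) for trophoblast, and Csf1r (1.64) and Itgam (0.43) for macrophages. Those of the remaining lists were Vim (0.48) for mesenchyme, Krt18 (1.73) and Krt8 (1.47) for epithelium, Stmn2 (-1.76) and Snap25 (0.45) for neurons, and Dppa5a (-1.48) and Zfp42 (-0.64) for pluripotent cells. The median pluripotent cell marker was at -2.48 on array 1 but at 0.87 on array 3, where its sign turned. Visceral endoderm markers were at 2.89, 0.89 and 1.91 in median on arrays 1, 2 and 3, and Serpina10 at 2.95, 1.55 and 1.31. Visceral endoderm was thus lowest on array 2, and Serpina10 on array 3. The medians of the mesenchyme, endothelium and macrophage lists had the array order of Serpina10, highest on array 1 and lowest on array 3. The part of these cell types in the values of Serping1, Serpina10 and Serpine2 was not tested.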

How the data were processed

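RNA from embryoid bodies of day 10 was purified (TRIzol, RNeasy), amplified, labelled with Cy3 or Cy5 and hybridised in pairs to Agilent mouse arrays, per the labels' protocols. The deposited scanner files hold spot and background intensity from Agilent Feature Extraction 10.7.3.1, and its log10 ratio of red over green, per the file headers. The authors' deposited table holds log2 ratios; limma is named, with no version, per the submitters' processing notes, and how background and centring were done is not given in the sources used here. Regressed on scanner ratios over 13271 bright spots, the 3 columns gave slopes of 0.832, 0.846 and 0.896 (medians -0.01, 0.02 and -0.01), so the table's direction is mutant over wild type and its scale log2 with some shrinkage.

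In R 4.3.3 with limma 3.58.1, mean intensities were corrected by normexp (offset 50) with the local background limited to 100 units, because 25 spots of array 2 had local backgrounds of up to 75740. Loess followed within each array, in which controls had weight 0. Controls and outliers were then dropped, spots of a probe averaged, and the filter on dim probes and the choice of the brightest probe per gene applied as the report states. Signals of each RNA are channel intensities after loess and Aquantile scaling, offset included. Ratios, turned as mutant over wild type by the labelled dyes, were tested with lmFit and eBayes, two-sided, at an adjusted p of 0.05. With 3 arrays on 1 slide, slide is no batch, and the number of arrays limits the precision.

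The serpin genes, the related lists, the marker lists, the tests and the limit on the background were chosen with earlier results of these data known. Named in full are Dido1, serpin genes past the threshold or at least 2-fold higher, or 2-fold lower, on all arrays, the serpin gene of highest mean signal in each clade, copies of one cluster together, per related list up to 3 genes of smallest p, and up to 2 markers per list with the highest signal; genes chosen after their values were seen are marked so. Alternatives changed the background step, the normalization, the filter, the probe rule, the model and the arrays used. The values of 1 tested serpin gene are not reported here, though it counts among the 36. No sequence of a protein was used here. Probe coordinates are those of the files (mm9); promoters are RefSeq's on GRCm38.p6.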

Additional observations from a re-analysis of the deposited data

How the results depend on the processing

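Of 18 alternatives, 7 left the count of called serpin genes at 1, and all 18 kept the sign of Serping1. The count was 0 with normexp without a limit on the local background, with the authors' deposited log ratios and with no filter on dim probes, 2 with an offset of 16 and with an intensity trend, 3 with the scanner software's log ratio and with a separate-channel fit, and 5 with a dye term. With a dye term 2502 of all 19686 tested genes were called. The serpin count ran from 0 to 7 when 1 replicate was left out. It was 0 without replicate 1 or replicate 3, and 7 without replicate 2, where 5077 genes in all were called. Without the limit, with the authors' ratios, with no filter and without replicate 1 or 3, no gene on the whole array was called, so these counts are not particular to serpins. In the same order of settings the count of related genes, 4 as reported, was 0, 0 and 0, then 9 with an offset of 16, 10 with an intensity trend, 11 with the scanner's ratio, 20 with a separate-channel fit and 31 with a dye term, and 0 to 41 with 1 replicate left out. The median serpin ratio was -0.0038 with no filter, -0.027 with a filter on both genotypes and 0.24 with every probe tested singly, and 0.0733 to 0.179 with 1 replicate left out. Serpinh1 turned to -0.12 with median centring in place of loess, -0.0034 with a dye term and -0.20 without replicate 1 (up to 0.196 without another), and Serpinf1 to -0.16 without replicate 2 (up to 0.984 without another). The cause of these changes was not tested. Every ratio is within an array, so the pairing of same-numbered RNAs is part of the reported fit. Dim probes near the detection floor, 23 serpin genes among them, limit what could be seen.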
